A study of Mus musculus with 2 samples.

Results

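The miR-30 family of the mouse is a set of 6 microRNA genes, Mir30a, Mir30b, Mir30c-1, Mir30c-2, Mir30d and Mir30e, which were chosen here by name and not by a threshold on their values. All 6 were found among the 1973 microRNA genes of the tables, and each reached 10 counts in each library, as did 365 genes in all, which are called detected below. The genes lie in 3 clusters of 2 genes, so that each has a partner nearby, and the comparison of partners is the main question addressed. Skeletal muscle of newborn mice (strain B6NCrl, postnatal, 0 days; no treatment is named) was the tissue, and RNA shorter than 30 bases was sequenced. There were 2 libraries, replicates 1 and 2, each from a piece of an organ. The labels number them as biological replicates, but both carry the same donor record. Whether they came from 2 different pups could not be settled, and the sex was not collected. With a single group there was no contrast of conditions, and differences between the libraries may be technical.

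A microRNA is cut from a hairpin-shaped precursor, and either arm of the hairpin, named 5p or 3p, can give a mature microRNA. Bases 2 to 8 of the mature microRNA, the seed, guide it to messenger RNAs that hold the complementary bases, whose output it lowers. Members of the miR-30 family share the seed of the 5p arm, and the family is widely expressed in muscle, heart and kidney, with known roles in cell differentiation and in the restraint of fibrosis.

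RefSeq sequences on GRCm38.p6 were matched by symbol for 4 of the 6 genes, Mir30a, Mir30c-1, Mir30c-2 and Mir30e. Their mature 5p arms are shown because they decide which reads can be assigned to 1 gene. Each is written 5′ to 3′ with the seed in capitals, and the 3 sequences have the seed GUAAACA in common.

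miR-30a-5p: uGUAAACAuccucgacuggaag

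miR-30e-5p: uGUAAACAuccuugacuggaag

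miR-30c-5p, from both Mir30c-1 and Mir30c-2: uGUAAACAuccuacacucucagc

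Counted from 1 at the 5′ end, miR-30a-5p and miR-30e-5p differed by C13U alone over 22 bases. Between miR-30a-5p and miR-30c-5p the changes were C13A, G14C, G18C, G19U and A20C, so that the first 12 bases were alike in all 3. The 3p arms fall into 2 seed groups, again with the seed in capitals.

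miR-30a-3p: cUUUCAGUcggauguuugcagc

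miR-30e-3p: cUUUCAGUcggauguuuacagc

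miR-30c-1-3p: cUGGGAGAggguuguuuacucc

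miR-30c-2-3p: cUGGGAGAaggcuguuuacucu

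The arms miR-30a-3p and miR-30e-3p differed by G18A, and the pair from the Mir30c genes by G9A, U12C and C22U. In the 3p arms, therefore, Mir30a went with Mir30e and Mir30c-1 with Mir30c-2, each pair on different chromosomes.

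The hairpins of both Mir30c genes are printed because the stretch they share, in capitals, covers the whole 5p arm.

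Mir30c-1, chr4:120769534-120769622, minus strand, GRCm38.p6: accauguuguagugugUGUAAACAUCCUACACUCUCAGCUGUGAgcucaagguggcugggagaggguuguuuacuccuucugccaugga

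Mir30c-2, chr1:23291701-23291784, plus strand, GRCm38.p6: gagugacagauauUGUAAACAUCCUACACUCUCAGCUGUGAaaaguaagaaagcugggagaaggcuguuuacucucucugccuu

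The shared stretch was 28 bases long and miR-30c-5p, at 23 bases, lies within it. Among these 4 hairpins, Mir30a and Mir30e shared at most 18 bases, with each other, which is shorter than a mature arm. Of the mature arms of these 4 genes, miR-30c-5p alone was found whole in 2 of the 1005 hairpins, and the other 6 sequences in 1. The authors' tables set apart reads that fit more than 1 place, and these made up 28.01% and 26.9% of all reads in replicates 1 and 2. The counts of Mir30c-1 and Mir30c-2 are therefore lower limits that leave out whole miR-30c-5p reads. Whether reads of the near-identical arms of Mir30a and Mir30e were also set apart was not tested. Mir30b and Mir30d had no sequence here, so whether they share an arm with another gene was not checked.

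Replicate 1 held 16398945 reads, of which 7955914 (48.5%) were counted on the annotated strand of a microRNA gene, and replicate 2 held 21037937, of which 10816295 (51.4%) were. A count of 3 corresponded to 0.377 CPM (counts scaled to 1000000 of these microRNA counts per library) in replicate 1 and to 0.277 CPM in replicate 2. Skeletal muscle markers (6 of 7 detected) were present, with 10.9% and 12.3% of counts on the 7 genes of that list in the tables. Nearly all of this was Mir206, with 113917 CPM ± 9579 (SD, n = 2). Mir133b (832 CPM), Mir208b (747 CPM) and Mir499 (493 CPM) had far lower counts, and Mir1a-1 (8.26 CPM) and Mir133a-1 (5.73 CPM) lower still. Reads that fit more than 1 place are left out of these counts too, so each is a lower limit. How far this lowered the counts of Mir1a-1 and Mir133a-1 was not tested, so they do not show that these microRNAs were scarce. No count of a miR-30 gene lay on the opposite strand. All intervals below cover counting error only, and a table gives 1 count per gene, so the arms of a hairpin could not be told apart.

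The 3 abundant members were Mir30e, Mir30d and Mir30a, 1 from each cluster. They took 98.6% of the family's counts in replicate 1 and 97.9% in replicate 2. Mir30e (ENSMUSG00000065409), at chr4:120772606-120772697 on the minus strand (GRCm38), lies in an intron of Nfyc, the gene of a subunit of the transcription factor NF-Y. It had 9233 CPM in replicate 1 and 4276 CPM in replicate 2, from 73454 and 46249 counts, with a mean of 6754 CPM ± 3505 (SD, n = 2). It ranked 31 of the 365 detected genes by mean level, 23 in replicate 1 and 40 in replicate 2. Replicate 1 was the higher library for this gene, by more than 2-fold on the CPM scale.

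Mir30d (ENSMUSG00000065437), at chr15:68341208-68341289 on the minus strand, lies in an exon of the long noncoding RNA gene Gm20732. Its level was 5593 CPM in replicate 1 and 3401 CPM in replicate 2, a mean of 4497 CPM ± 1550 (rank 38). Mir30a (ENSMUSG00000065405), at chr1:23272269-23272339 on the plus strand, overlaps no other gene of the annotation. It had 5770.3 CPM and 2981 CPM, a mean of 4376 CPM ± 1972 (rank 40). Both genes were again higher in replicate 1. Within each library Mir30e was first of the 3, at 1.65-fold and 1.26-fold the level of Mir30d and 1.60-fold and 1.43-fold that of Mir30a in replicates 1 and 2. Mir30d exceeded Mir30a in replicate 2 (1.14-fold) but not in replicate 1 (0.969-fold). Across libraries the ranges of the 3 overlapped. Levels were compared as reads per gene and not per base, as mature microRNAs are of similar length. Whether different microRNAs were turned into reads equally well was not tested. Ratios between genes here are therefore ratios of counts and may differ from ratios of molecules. Per 100 bases of annotated gene length, Mir30e stayed first with 7342 CPM, while Mir30a (6163) stood above Mir30d (5484).

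The other 3 members had far lower counts. Mir30b (ENSMUSG00000065476), at chr15:68337415-68337510 on the minus strand, partly overlaps an exon of the noncoding gene Gm26621. It had 252 CPM in replicate 1 and 175 CPM in replicate 2, from 2001 and 1895 counts, and ranked 148 with a mean of 213 CPM ± 54.0 (SD, n = 2). Mir30c-1 (ENSMUSG00000065490), at chr4:120769534-120769622, sits in an intron of Nfyc with Mir30e. It had 29.7 CPM and 29.9 CPM from 236 and 323 counts, a mean of 29.8 CPM ± 0.141 (rank 223). Mir30c-2 (ENSMUSG00000065567), at chr1:23291701-23291784, lies in an exon of the noncoding gene Gm27028. It had 17.0 CPM and 18.2 CPM from 135 and 197 counts, a mean of 17.6 CPM ± 0.880 (rank 244).

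From Mir30a downwards the order of the counts held in both libraries without overlap. Mir30a exceeded Mir30b 22.9-fold and 17.0-fold in replicates 1 and 2, Mir30b exceeded Mir30c-1 8.48-fold and 5.87-fold, and Mir30c-1 exceeded Mir30c-2 1.75-fold and 1.64-fold. The counts of both Mir30c genes in these steps are lower limits, so the step between them is not bounded in either direction. For the same reason, the step from Mir30b to Mir30c-1 could be smaller or reversed if whole miR-30c-5p reads were counted. Across the tables, 43 of the 335 detected genes with a RefSeq mature sequence had an arm that lies whole in another hairpin (a split chosen after the values were seen), and their median level was 29.0 CPM. The 292 others had a median of 103 CPM. Mir30c-1 (29.8 CPM) lay near the median of the 43 genes, which include both Mir30c genes, and Mir30c-2 (17.6 CPM) lay under it. How far the shared arm accounts for these levels was not tested.

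**Figure D1:**
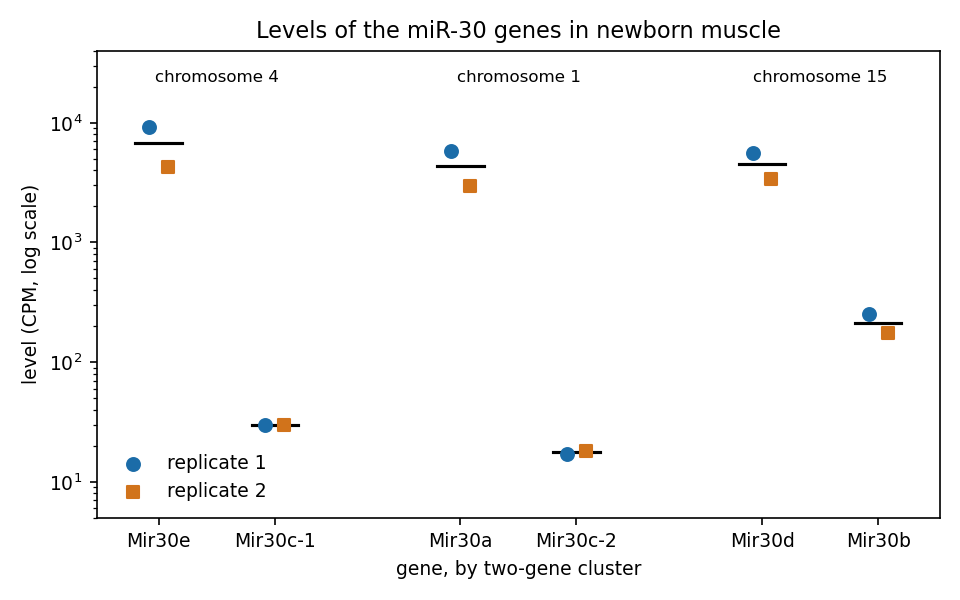
Levels of the 6 miR-30 genes in CPM (log scale), by cluster. Circles are replicate 1, squares replicate 2 and bars the mean. Each cluster held 1 gene with high and 1 with low counts, and the abundant genes were higher in replicate 1, from 5593 to 9233 CPM against 2981 to 4276 CPM. The counts of Mir30c-1 and Mir30c-2 are lower limits that leave out whole miR-30c-5p reads.

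The counts of partners were unequal in each of the 3 clusters and in both libraries. On chromosome 15, Mir30d exceeded Mir30b 22.2-fold in replicate 1 (95% exact counting interval 21.3 to 23.3) and 19.4-fold in replicate 2 (18.5 to 20.3), a mean of 20.8-fold ± 2.00 (SD, n = 2). The starts of these genes are 3793 bases apart. Whether reads of either gene were set apart as fitting several places was not checked, so this ratio may also leave reads out. The ratio was 1.15-fold higher in replicate 1, the smallest such difference of the 3 clusters, with counting intervals that did not overlap.

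On chromosome 4, Mir30e exceeded Mir30c-1, 3072 bases away in the same host gene, 311-fold in replicate 1 (274 to 355) and 143-fold in replicate 2 (128 to 160). On chromosome 1, Mir30a exceeded Mir30c-2, 19432 bases away, 340-fold in replicate 1 (287 to 406) and 164-fold in replicate 2 (142 to 189). Both ratios were about 2-fold higher in replicate 1, with counting intervals that did not overlap. In both, the count of the lower partner leaves out whole miR-30c-5p reads, so the ratio with those reads counted could be smaller. With 2 libraries, an exact two-sided test of a ratio across samples can give no p under 0.5, so none is reported.

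A ratio of partners within a library does not depend on how libraries are scaled. The log2 ratio was higher in replicate 1 than in replicate 2 by 1.12 for Mir30e over Mir30c-1, by 1.05 for Mir30a over Mir30c-2 and by 0.20 for Mir30d over Mir30b. Among 117 pairs of detected microRNA genes next to each other on a strand, with starts within 50 kb, the median size of this change was 0.33. In that set, which was chosen after seeing the data and includes the miR-30 pairs, 8 pairs changed more than Mir30e with Mir30c-1 and 9 more than Mir30a with Mir30c-2, while 77 changed more than Mir30d with Mir30b. The levels of partners in this set differed by a median of 2.61 on the log2 scale, against 7.88 for Mir30a with Mir30c-2, 7.72 for Mir30e with Mir30c-1 and 4.38 for Mir30d with Mir30b. More unequal than these were 7 (5.98%), 9 (7.69%) and 32 (27.4%) of the 117 pairs. Among all 367 pairs with starts within 10 kb, 46 (12.5%) were more unequal than Mir30e with Mir30c-1 and 126 (34.3%) more than Mir30d with Mir30b, and within 50 kb the share was 10.1% for Mir30a with Mir30c-2 and 11.9% for Mir30e with Mir30c-1. Of the 117 pairs, 45 lie on chromosome 12, and pairs that share a gene or a transcript are not independent, so these positions are descriptions.

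**Figure D2:**
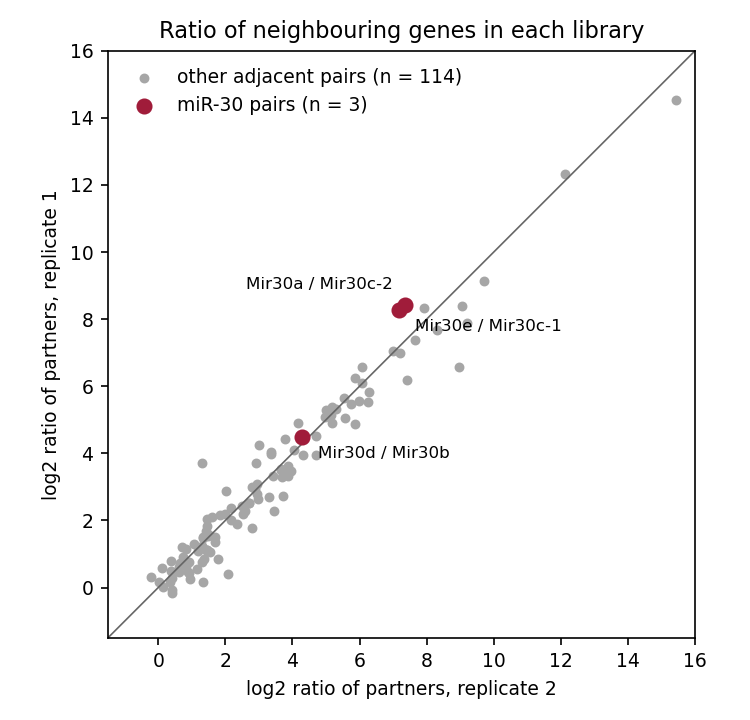
Log2 ratio of the higher over the lower of 2 adjacent microRNA genes in replicate 2 (x axis) and replicate 1 (y axis), for the other pairs (grey) and the 3 miR-30 pairs (red), with the line of equal ratios. The pairs with a Mir30c gene lie above the line, at 8.41 and 8.28 in replicate 1 against 7.35 and 7.16 in replicate 2, while Mir30d with Mir30b lies close to it.

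In the comparison of replicate 1 with replicate 2, Mir30e, Mir30a, Mir30d and Mir30b were higher in replicate 1. After scaling by trimmed means (TMM), the log2 ratio of replicate 1 over replicate 2 was 0.87 for Mir30e (95% exact counting interval 0.85 to 0.88), 0.71 for Mir30a (0.69 to 0.73) and 0.47 for Mir30d (0.45 to 0.49). The ratio was 0.28 for Mir30b (0.18 to 0.37, adjusted p = 6.18e-09, exact two-sided binomial test). For Mir30c-1 it was -0.26 (adjusted p = 0.0669) and for Mir30c-2 -0.35 (adjusted p = 0.0519, the same exact test), and neither passed. Thus 4 of 6 members passed the adjusted p of 0.05 as higher in replicate 1 and 0 as higher in replicate 2, where 30.1% and 31% of the 365 genes did (61.1% in either direction). With DESeq2 size factors, both Mir30c genes passed as higher in replicate 2, Mir30c-2 with an adjusted p of 0.0396 and Mir30c-1 with one of 0.0494 by the same exact test, so that 4 and 2 members passed where 28.8% and 33.2% of genes did. Over the alternatives run, the adjusted p of this exact test reached 0.622 for Mir30c-2 and 0.974 for Mir30c-1, both with library totals. None of the 6 reached 2-fold by this exact binomial test with Benjamini-Hochberg adjustment, which 6.3% of genes passed as higher in replicate 1, 1.1% as higher in replicate 2 and 7.4% in all (6 of 6 had an unadjusted p under 0.05 before the fold minimum, and with DESeq2 size factors the count past 2-fold was again 0). With library totals in place of TMM, which added 0.25 to every log2 ratio, 1 member, Mir30e, passed 2-fold with a ratio of 1.11, where 11.2% of genes passed as higher in replicate 1, 0.274% as higher in replicate 2 and 11.5% in all. The test takes counting error alone into account and compares 2 libraries, not conditions.

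The median log2 ratio of the 6 members was 0.37, beside 0.01 over all 365 genes. Among the 84 genes whose mean reached 1000 CPM, 24 had a ratio above 0 (45 with library totals), and the median of the 84 was -0.23 (0.01 with library totals). The 3 members among them stood at places 1 (Mir30e), 2 (Mir30a) and 7 (Mir30d) of the 84 when ordered from the ratio highest in replicate 1. Mir20a, Mir21a, Mir93 and Mir17, named after their values were seen, took the places between Mir30a and Mir30d, with ratios from 0.62 down to 0.51.

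**Figure D3:**
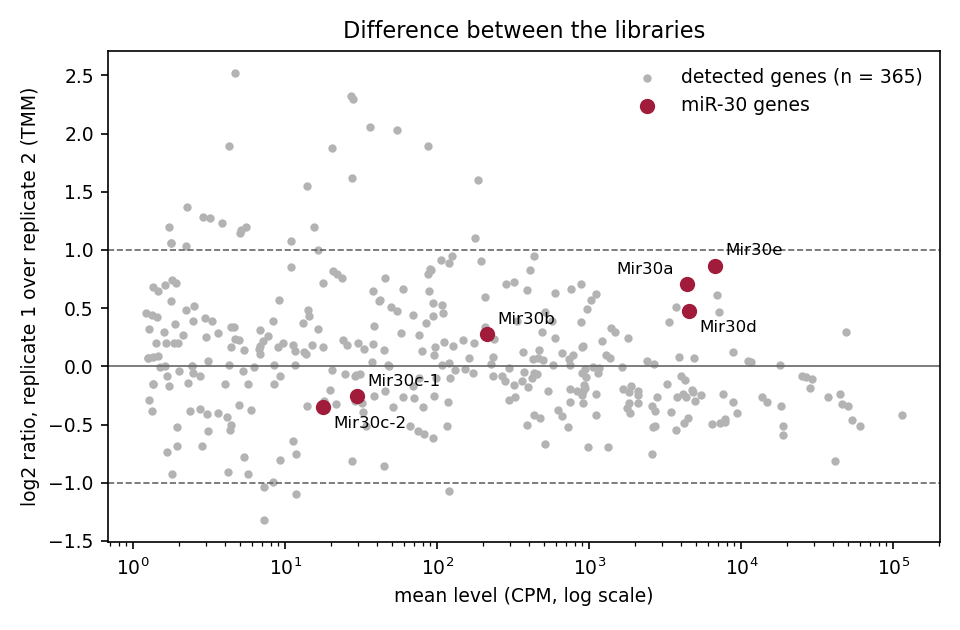
Log2 ratio of replicate 1 over replicate 2 after TMM scaling (y axis) against mean level in CPM (x axis, log scale) for the 365 detected genes, with the miR-30 genes in red and dashed lines at 2-fold. Mir30e (0.87) and Mir30a (0.71) lie at the upper edge of the abundant genes, and Mir30c-1 and Mir30c-2 lie below 0.

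Markers of other cell types also differed between the libraries. Of counts in replicates 1 and 2, erythroid markers (2 of 2 detected) took 0.0583% and 0.0286%, epithelial markers (7 of 7) 0.0531% and 0.0334%, leukocyte markers (4 of 4 in the tables) 0.0752% and 0.0546%, and fibroblast and mesenchymal markers (4 of 4) 0.672% and 0.502%. Endothelial Mir126a took 4.50% and 4.74%, smooth muscle markers (2 of 2) 3.15% and 2.85% and cartilage markers (2 of 2) 0.221% and 0.197%. Cardiac Mir208a took 0.00155% and 0.00121%, and liver Mir122 0.00864% and 0.0153%. Neuronal markers (2 of 7 detected) took 0.0839% and 0.0851%, with Mir124a-1, Mir124a-2 and Mir124a-3 at 0 counts. Nearly all of this share was Mir128-1 (485 and 427 CPM) and Mir128-2 (354 and 423 CPM), and no other gene of that list was detected. The share therefore says little about neuronal RNA. Pluripotency markers (1 of 7 detected) took 5.15e-04% and 4.35e-04%, with Mir290a at 0 counts. The skeletal muscle list was lower in replicate 1, as given above, which reflects Mir206 (log2 ratio -0.17 with library totals). Of its other detected genes, Mir208b (-0.059) had a ratio under 0. Mir133b (0.031), Mir133a-1 (0.091), Mir499 (0.30) and Mir1a-1 (0.64) had ratios above 0. All marker counts leave out reads that fit more than 1 place. The part of these differences in the levels of the miR-30 genes was not tested, and fewer cells of a type cannot be told apart from less RNA per cell.

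As a family, the miR-30 genes took 2.09% of microRNA counts in replicate 1 and 1.09% in replicate 2, a mean of 1.59% ± 0.708 (SD, n = 2), or 1.92-fold more in replicate 1. The cluster on chromosome 4 held 44.3% and 39.6% of this, the cluster on chromosome 1 held 27.7% and 27.6%, and that on chromosome 15 held 28.0% and 32.9%. In fold, each cluster was higher in replicate 1, by 2.15 on chromosome 4, 1.93 on chromosome 1 and 1.63 on chromosome 15. Beside 16 other families of related microRNAs, the miR-30 family ranked 5 by mean share, 4 in replicate 1 and 6 in replicate 2. These families are a chosen list and not all families of the tables. Genes outside the list, such as Mir206 (113917 CPM), Mir487b (60149 CPM) and Mir335 (48999 CPM), were more abundant than any listed gene. The ranks therefore hold within the list alone. Above it by mean share were let-7 (9.22% ± 0.128), miR-99/100 (3.46% ± 0.196), miR-23/27/24 (3.45% ± 0.0963) and miR-26 (1.79% ± 0.229), led by Mirlet7i, Mir99a, Mir23a and Mir26b. The 2 next lower were the family of Mir130a (1.30% ± 0.183) and miR-10 (1.07% ± 0.0190, led by Mir10b). Both libraries' values of miR-26 and of the Mir130a family lay between the 2 values of the miR-30 family, and those of miR-10 lay just under its lower value. Shares are of reads that fit 1 place, so families with identical copies are understated.

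The ratio of replicate 1 over replicate 2 was larger in 2 of these families, miR-200 (4.97-fold) and miR-199 (1.95-fold), which took 0.0128% and 0.0976% of counts. Their highest genes were Mir429 and Mir199b. Of the listed families above 1% of counts, the 6 others had ratios from 0.961 to 1.22. Families of under 0.5% ranged from 1.24 for miR-181, led by Mir181c, to the value of miR-200. These included the families led by Mir29a (1.27), Mir15a (1.42), Mir107 (1.45), Mir125a (1.46), Mir148a (1.54), Mir221 (1.73) and Mir34c (1.74).

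**Figure D4:**
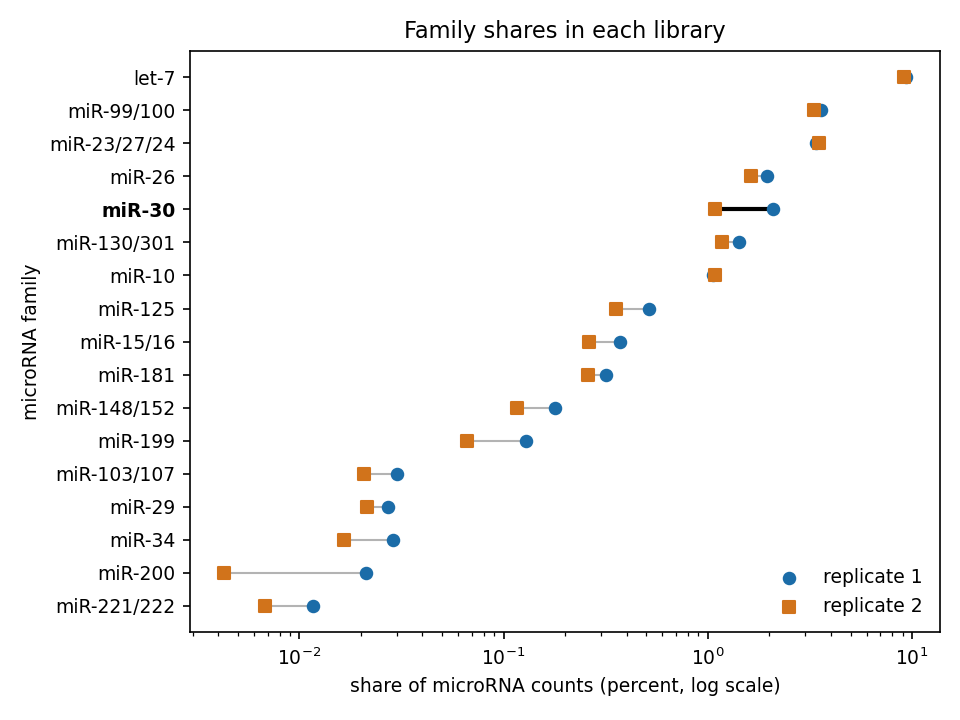
Share of microRNA counts in percent (x axis, log scale) of 17 microRNA families in replicate 1 (circles) and replicate 2 (squares), ordered by mean share. The miR-30 family, in bold, went from 1.09% in replicate 2 to 2.09% in replicate 1, the widest gap among the 7 listed families above 1%. The 17 families are a chosen list that leaves out abundant genes such as Mir206.

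Among the RefSeq mature sequences, 1 other gene of the tables had an arm with the seed of miR-30a-5p, Mir384 on chromosome X, whose 5p arm is shown with the seed in capitals.

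miR-384-5p: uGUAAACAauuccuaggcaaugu

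Mir384 had 5.03 CPM in replicate 1 and 3.79 CPM in replicate 2, from 40 and 41 counts, a mean of 4.41 CPM ± 0.875 (rank 297). Its log2 ratio between the libraries was 0.16 (-0.50 to 0.83, adjusted p = 0.742, exact two-sided binomial test). It added little to the counts with this seed, since the lowest miR-30 gene, itself a lower limit, stood at 17.6 CPM. Mir30f, annotated on the strand opposite Mir30e, was not analysed here.

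The genes nearest in mean level, over 2 libraries, give a scale for each member. Mir30e stood between Mir21a (6956 CPM) and Mir337 (6433 CPM), Mir30d between Mir154 (4727 CPM) and Mir341 (4427 CPM), and Mir30a between Mir341 and Mir652 (4343 CPM). Mir30b stood between Mir339 (224 CPM) and Mir362 (206 CPM), Mir30c-1 between Mir144 (29.9 CPM) and Mir1249 (29.2 CPM), and Mir30c-2 between Mir511 (17.7 CPM) and Mir138-2 (16.5 CPM). Of the genes beside the abundant members, Mir21a was also higher in replicate 1, with a log2 ratio of 0.61, while Mir337, Mir154, Mir341 and Mir652 had ratios from -0.50 to -0.20.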

How the data were processed

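Small RNA libraries of 2 samples were used. For each, the authors deposited raw counts for 1973 microRNA genes, with assembly mm10 and annotation M4 per the deposited readme text. The aligner and the counter: not given in the sources used here. Of 3 count columns, the third column of the table, taken as the annotated strand because it holds most counts, was used. Rows that name no gene stayed out of library sizes (reads fitting more than 1 place 28.01% and 26.9%, unmapped 16.0% and 13.4%, in no gene on either strand 1.60% and 1.43%).

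Symbols and coordinates came from GENCODE M21 on GRCm38 (1894 of 1973 IDs matched), sequences from RefSeq (GRCm38.p6). CPM are annotated-strand counts scaled to 1000000 per library. A minimum of 10 counts in each library defined detected genes. TMM factors came from edgeR 4.0.16 and the alternative size factors from DESeq2 1.42.0 (R 4.3.3). The libraries were compared with scipy 1.17.1 by the exact binomial test, two-sided, adjusted after Benjamini and Hochberg over 365 genes, at an adjusted p of 0.05 and a fold minimum of 2. The test was also run on simulated data, but with library totals in place of TMM sizes, so that run does not check the reported calls. Intervals are exact at 95%. Python 3.11.15, numpy 2.4.6, pandas 2.3.3 and matplotlib 3.10.9 were used.

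Named genes were the members, other genes with the seed, the neighbours by mean CPM, the highest gene of each family and the marker genes. Members and lists were chosen with earlier results of these data known. No sample was left out.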

Additional observations from a re-analysis of the deposited data

How the results depend on the processing

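The family share of 1.59% was 0.787% of all reads of the tables, and ranged from 1.41% to 1.79% with counts on either strand, without the Mir30c genes or without Mir206. From single replicates it was 1.09% and 2.09%. Partner log2 ratios kept their direction under every alternative run. Counts on either strand could not change them, as no miR-30 count lay on the opposite strand. No alternative put back the reads that fit more than 1 place. The direction was therefore tested against that step for no pair, including the pairs with a Mir30c gene. Mir30d over Mir30b was 4.60 per annotated length and 4.28 to 4.47 from single replicates. Single replicates gave 7.35 to 8.41 for Mir30a over Mir30c-2 and 7.16 to 8.28 for Mir30e over Mir30c-1. Leaving out a replicate leaves no ratio between libraries.

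Genes past the test between libraries numbered 27, against 42 with library totals (41 higher in replicate 1 and 1 higher in replicate 2, for 23 and 4 with TMM), 15 with a count minimum of 50, 72 with a fold minimum of 1.5 and 223 without one. At 1.5-fold, Mir30a and Mir30e passed. The sign of each member's ratio between libraries was kept under the 8 alternatives. For the Mir30c genes this means little with library totals. There, Mir30c-1 stood at -0.0096 (95% exact counting interval -0.26 to 0.24) and Mir30c-2 at -0.10 (-0.43 to 0.22). For pairs with starts within 10 kb (367 pairs, Mir30a with Mir30c-2 not among them), the median log2 ratio of partners was 2.90. It was 2.44 within 2 kb, 3.01 within 50 kb, 2.54 with a count minimum of 50, 2.02 without genes that share 20 bases, 2.61 for adjacent genes and 2.90 to 2.92 from single replicates. The cause of these differences was not tested. Depth limited Mir384 most, while the counts of both Mir30c genes were limited by the whole miR-30c-5p reads left out. With 2 libraries there is no estimate of the spread between animals.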
